A study of Bos taurus with 4 samples.

Results

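Heat shock proteins, their co-chaperones and the folding enzymes of the endoplasmic reticulum (ER) were followed in cultured bovine chromaffin cells treated with PACAP. Members were the library clones with 1 mouse gene symbol in the platform annotation that starts with Hsp, Dnaj, Cct and a digit, Pdia or Fkbp, or that equals Calr, Canx or Tcp1. This took 207 clones of 86 genes out of 35974 clones, of which 127 clones (49 genes) were assigned to the cytosol and nucleus, 18 (9 genes) to mitochondria, 51 (22 genes) to the ER and 11 (6 genes) to no single one of these. A signal that could be tested was found for 202 clones of 85 genes. The rule uses symbols and no measured value.

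Chromaffin cells make up the adrenal medulla and secrete catecholamines, and PACAP (pituitary adenylate cyclase-activating polypeptide) is a neuropeptide that stimulates them; the labels enter the tissue as brain. The treatment was 100 ng/ml PACAP for 6 h at 37 C, and the control cells of each repeat are described only as control. Total RNA of the treated cells (Cy5) and of the control cells (Cy3) shared 1 array of spotted mouse cDNA clones in each of 4 biological repeats, with no dye swap, so that a dye preference of a clone cannot be told apart from the treatment. Whether a repeat stands for an animal of its own is not stated in the labels, so p-values here measure only the spread among these 4 RNA pairs, which may be technical.

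Chaperones bind unfolded stretches of other proteins and keep them from clumping. In the cytosol, Hsp70 proteins work with DnaJ partners that deliver substrates and start ATP hydrolysis, and they pass some clients on to Hsp90 or to the ring-shaped chaperonin TRiC; mitochondria have their own Hsp70 and Hsp60. In the ER, the Hsp70 called BiP, the lectin chaperones calnexin and calreticulin and the protein disulphide isomerases fold secreted proteins, among them the granule proteins that chromaffin cells release.

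Median signal over the library spots was 102.8 to 415.6 intensity units in the PACAP channel and 130.8 to 579.3 in the control channel. The control channel exceeded 2 background SD on 82.3, 53.6, 46.5 and 99.8% of the library spots of repeats 1 to 4, so that repeat 4 had the brightest control channel. Of the chromaffin cell markers, 6 of 7 were measured and 4 had a control signal above background on all 4 arrays. All 4 fibroblast markers did so too, against 1 of 4 measured for the adrenal cortex, 1 of 3 for endothelium, 1 of 4 for leukocytes and 0 of 2 for Schwann and sustentacular cells. The mean log2 ratio of the chromaffin markers was 0.20 to 0.72 by repeat and that of the fibroblast markers -0.34 to 0.04. The single genes differed in sign within both lists. Their means over the arrays ran from -0.50 to 1.84 (median 0.45) for chromaffin and from -0.30 to 0.17 (median -0.22) for fibroblast markers. The 4 adrenal cortex markers had means of 0.39, -0.76, -0.81 and 0.19 on repeats 1 to 4, low on repeats 2 and 3, where the median over the member clones was 0.36 on each, against 0.14 and 0.12 on repeats 1 and 4. The lists of endothelium, leukocytes, and Schwann and sustentacular cells lay at -0.26 to 0.38, -0.12 to 0.46 and -0.16 to 0.41. The part of the makeup of the cultures in the ratios was not tested, and fewer cells of a type and less RNA per cell cannot be told apart in such bulk RNA.

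Values are log2(PACAP / control) after loess within each array, as mean ± SD over n = 4 arrays unless stated, and a gene is given by its brightest measured clone. By limma with Benjamini-Hochberg adjustment over all clones tested, 0 of the 202 member clones passed an adjusted p of 0.05, as did 0 of all 35121 clones (0%), and the lowest adjusted p of a member was 0.453. In data simulated for this comparison, with 35121 clones, the same test called 0 of 67 clones given a 2-fold change, 24 of 67 at 4-fold and 45 of 66 at 8-fold. The simulation gave a clone the same brightness on every array and held no background, floor or dim control channel. At an unadjusted p under 0.05, 27 member clones (13.4%) were higher after PACAP, against 3.93% of all clones, and 10 (4.95%) were lower, against 6.46%. Clones of 1 gene count separately here, and the 27 are of 18 genes and the 10 of 9 genes. With median centring in place of loess, 70 member clones (34.7%) were higher and 9 (4.46%) lower, against 7.68 and 9.69% of all clones. With the authors' deposited log2 ratios, centred on each array, 5 (2.48%) were higher and 16 (7.92%) lower, against 1.20 and 11.6% of all clones. Trend and robust moderation gave 11 higher (5.45%) and 0 lower, against 2.59 and 0.0085% of all clones. Leaving out repeat 2 or repeat 3 lowered the 27 to 10 (4.95%) and to 9 (4.46%), beside 2.46 and 2.00% of all clones. Leaving out repeats 1, 2 or 3 lowered the 10 to 3, 3 and 4, against 5.05, 3.65 and 3.23% of all clones.

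Member clones were above 0 on all 4 arrays in 55 cases (27.2%), against 9.59% of all clones, and a ratio below 0 on all 4 arrays was found for 6 (2.97%), against 8.25%; the others had arrays on both sides of 0. The mean was above 0 for 140 of the 202 (69.3%), against 48.6% of all clones. Counted by gene, with the brightest clone, it was above 0 for 53 of 85 (62.4%), against 52.9% of all named genes. By gene, 19 of 85 members were above 0 on all 4 arrays, against 1343 of all 11740 named genes. Below 0 on all 4 arrays were 2 member genes, against 935 of all named genes. The median of the clone means was 0.21 for members and -0.01 for all clones. By gene the medians were 0.20 for members and 0.03 for all named genes. Among the 56 member genes with several measured clones, all clones had a mean above 0 for 24 (42.9%) and below 0 for 5 (8.93%); over all 5936 named genes with several clones these shares were 23.8% and 17.4%.

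Members were brighter than other clones, and brightness moved with the ratio. Of the 202 member clones, 102 (50.5%) lay in the brightest quintile of all clones tested, and 54.5% had a control signal above background on all 4 arrays, against 31.3% of all clones. Within the brightest quintile the median of the members was 0.30, and 82.4% of them had a mean above 0, against a median of 0.04 and 54.6% for all clones of that quintile. The members' median there was 0.17, 0.41, 0.44 and 0.20 on repeats 1 to 4. In the 2 dimmest quintiles, with 14 and 18 member clones, the members' medians were -0.14 and -0.27, beside -0.19 and -0.11 for all clones. With median centring, which leaves a trend with brightness in the ratios, the brightest quintile stood at 0.85 for members and 0.53 for all clones. The part of brightness in the members' ratios was not tested beyond these values.

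**Figure D1:**
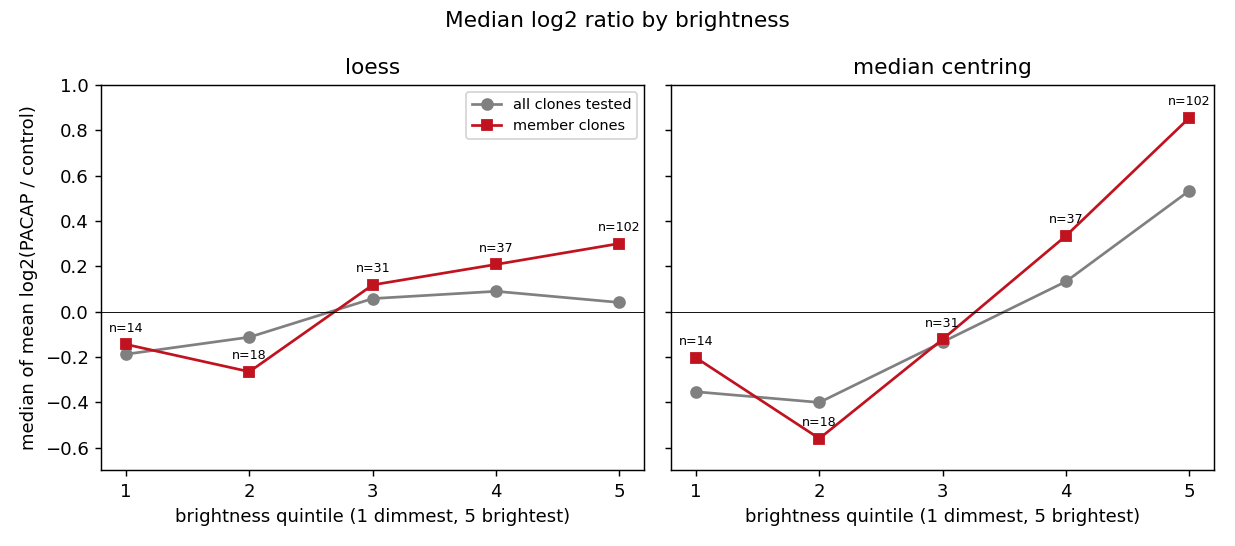
Median of the mean log2(PACAP / control) by quintile of brightness (1 dimmest, 5 brightest) for all clones tested (grey) and member clones (red, with their number), after loess (left) and after median centring (right). In the brightest quintile the members stood at 0.30 against 0.04 after loess and at 0.85 against 0.53 after median centring.

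Differences between the 3 compartments were smaller than their spread over the repeats. The median over the 48 measured cytosolic genes was 0.14, 0.35, 0.28 and 0.08 on repeats 1 to 4, that over the 9 mitochondrial genes was 0.15, 0.29, 0.43 and -0.07, and that over the 22 ER genes was 0.09, 0.24, 0.26 and 0.36. All 11740 named genes had medians of 0.02, 0.04, 0.10 and -0.01. All 3 compartments thus lay above the named genes on repeats 1 to 3, and on repeat 4 the ER genes lay highest and the mitochondrial genes below 0. The mean difference between the repeats' medians was 0.02 ± 0.18 for ER less cytosol, -0.01 ± 0.12 for mitochondria less cytosol and 0.03 ± 0.27 for ER less mitochondria. A ratio above 0 on all 4 arrays was found for 35 of 124 cytosolic clones (28.2%), 18 of 50 ER clones (36.0%) and 2 of 17 mitochondrial clones (11.8%), beside the 9.59% of all clones. By gene this held for 11 of 48 cytosolic, 7 of 22 ER and 1 of 9 mitochondrial genes, beside 1343 of all 11740 named genes. On repeat 4, 18 of 22 ER genes were above 0, as were 28 of 48 cytosolic and 3 of 9 mitochondrial genes, against 49.4% of all named genes. The brightest clone of the cytosolic gene Dnajc24 had no value on repeat 4, so the 0.39 of its other clone was used there. That value counts among the 28 and enters the cytosolic median of repeat 4. Missing values of named genes were filled in the same way. Cytosolic clones were in the brightest quintile in 54.8% of cases, ER clones in 52.0% and mitochondrial clones in 29.4%.

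The ER median depended on the filter, being 0.09 where both channels had to be above background. With the authors' deposited ratios, centred, the medians were -0.41 for cytosolic, 0.98 for mitochondrial and -0.89 for ER genes. In those ratios the control signal, after a second subtraction of background, lay at the floor of 1 for 57.5, 83.0 and 81.5% of library spots on repeats 1 to 3 and for 5.29% on repeat 4. For member spots the shares were 35.8, 66.4, 63.1 and 2.83%. Of the 51 genes named below, 27 had the opposite sign in those ratios, among them Hspa8, Hspa9, Hsp90aa1, Hsp90b1, Hsph1, Canx, Calr, Pdia3, Tcp1, Cct2, Dnaja1 and Hspd1, whereas Cct5, Cct8, Dnaja2, Dnajc3, Dnajc7 and Hspe1 kept theirs. The directions that follow are those after loess.

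**Figure D2:**
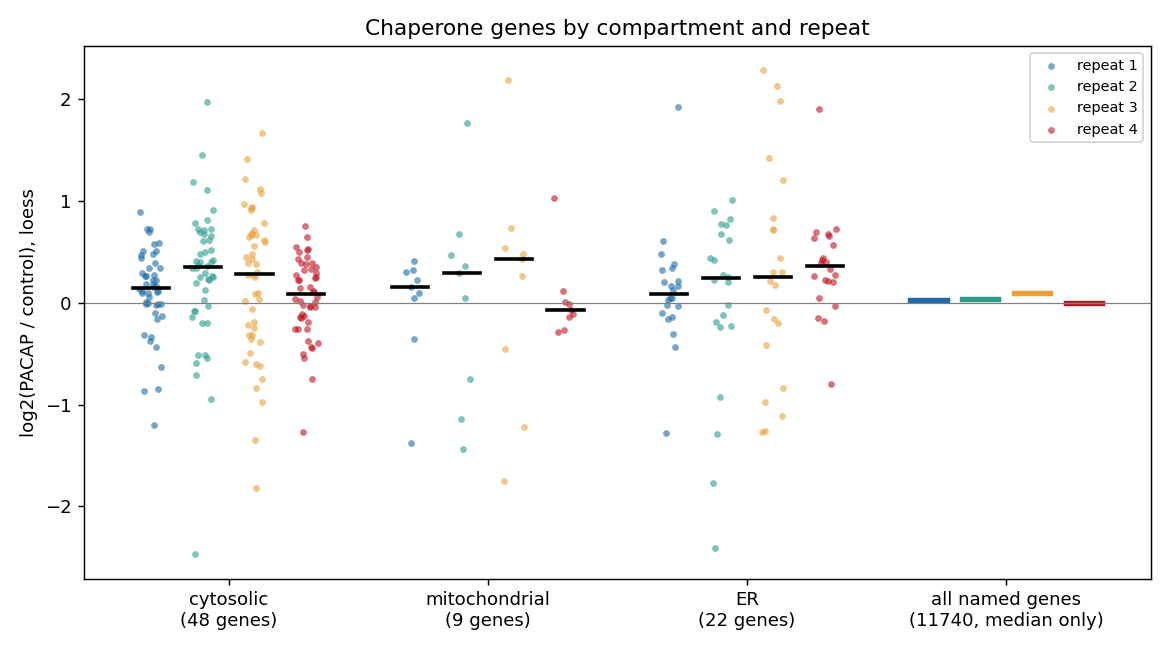
Log2(PACAP / control) of each measured member gene (1 point per gene, brightest clone) by compartment and repeat, with the median as a black bar, and the median of all 11740 named genes as a coloured bar for each repeat. On repeat 4 the point of Dnajc24 is from its other clone, because the brightest had no value. The medians of cytosolic, mitochondrial and ER genes overlap in range, and the mitochondrial median is below 0 on repeat 4 alone.

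Among Hsp70 proteins of the cytosol, Hspa8 (Hsc70), the constitutive form, had 7 clones, all with a mean above 0. The 6 in the brightest quintile had means of 0.17 to 0.65, and the seventh, at 0.99, was dim, with its control signal above background on 2 of 4 arrays and at the floor of 1 on repeat 3. Its brightest clone gave 0.22, 0.41, 0.27 and 0.76 on repeats 1 to 4 (0.41 ± 0.24), though the title of that clone in the scanner table names another protein, an Ena-vasodilator stimulated phosphoprotein. The next brightest clone, with no such conflict, gave 0.39, 0.54, 0.72 and 0.97 (0.65 ± 0.25, unadjusted p = 0.026, adjusted p = 0.453, limma). Both clones were above 0 on every array and highest on repeat 4. The heat-inducible Hspa1b, named here after its values were seen, had 1 clone with -0.87, -0.20, -0.50 and 0.38 (-0.30 ± 0.53), so that its arrays lay on both sides of 0. Mouse clones of such similar genes may bind each other's bovine RNA, which was not tested.

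Hsph1 (Hsp110), which helps Hsp70 release its nucleotide, had 4 clones with means of 0.28 to 1.02. Its brightest clone gave 0.58, 0.36, -0.36 and 0.53 (0.28 ± 0.43), low on repeat 3 alone, and the other 3 clones were above 0 on all 4 arrays. The related Hspa4 gave 0.01, 0.42, 0.67 and -0.25 (0.21 ± 0.41), and the 3 clones of Hspa4l had means of -0.15 to 0.30, so that no mean of these clones exceeded its SD. Hspa12a, a distant member of the family, had 7 clones with means from -0.50 to 0.20, of which 3 were above 0.

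The clone annotated as Hspa14, a ribosome-associated Hsp70, stood on the other side. It gave -0.64, -0.51, -0.60 and -0.44 on repeats 1 to 4 (-0.55 ± 0.09, unadjusted p = 0.044, adjusted p = 0.474, limma) and was thus below 0 on every array with a narrow spread. Its title names another 70 kDa heat shock protein, so which gene it reports is not settled. With median centring its mean was 0.57, so its direction differed with the normalisation.

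Hsp90aa1, the inducible form of cytosolic Hsp90, which matures kinases and steroid receptors, had 6 measured clones, all in the brightest quintile. The brightest gave 0.44, 0.52, 0.66 and -0.12 (0.37 ± 0.34), low on repeat 4 alone, and 4 others with means of 0.61 to 0.83 were above 0 on all 4 arrays. The clone at plate position BMAPII17l15 gave -0.52, -0.24, -0.25 and -0.59 (-0.40 ± 0.18), below 0 on every array. Clones annotated to 1 gene thus differed in sign by more than the SD of either. The clone with the mean of 0.83 has a title that names a NIMA-related kinase. The brightest clone was spotted in 4 wells, whose values on an array spanned at most 0.38.

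Hsp90b1 (Grp94), the Hsp90 of the ER, gave 0.38, 0.67, 0.83 and 0.42 (0.57 ± 0.21, unadjusted p = 0.042, adjusted p = 0.470, limma), above 0 on every array. Its other clone had 0.42, 0.80 and -3.74 on repeats 1 to 3 and no value on repeat 4 (-0.84 ± 2.52, n = 3). The 2 clones agreed on repeats 1 and 2 and parted on repeat 3. There the PACAP signal of this other clone was 14.1, against 14172 and 7527 on repeats 1 and 2. Its control signal was 189.1 on repeat 3, against 4182 and 966. The -3.74 and the mean of -0.84 thus rest on a very dim spot.

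The cytosolic chaperonin TRiC, which folds actin and tubulin, had 24 measured clones of 8 subunit genes. Of these clones, 23 (95.8%) had a mean above 0 (median 0.27), beside 48.6% of all clones and 54.6% of those in the brightest quintile. With the deposited ratios, centred, 14 of 24 did, beside 43.5% of all clones. The median over the clones was 0.11, 0.64, 0.29 and 0.14 on repeats 1 to 4, highest on repeat 2. The brightest clone of Cct8 gave 0.72, 0.66, 1.08 and 0.64 (0.78 ± 0.21, unadjusted p = 0.011, adjusted p = 0.453, limma), and that of Cct2 gave 0.47, 0.40, 0.38 and 0.25 (0.38 ± 0.09); both were above 0 on all arrays. The dimmer clone of Cct8 had a mean of 0.04 ± 0.58.

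Cct2 also had the member clone of smallest p, with 0.83, 1.02, 1.40 and 1.18 (1.11 ± 0.24, unadjusted p = 0.0017, adjusted p = 0.453, limma), but the title of that clone names beta-secretase. Cct5 gave 0.18, 0.78, 0.45 and 0.39 (0.45 ± 0.25), and the 4 clones of Cct7 had means of 0.21 to 0.36. The 3 clones of Cct3 had means of 0.21 to 0.27 and the 4 clones of Tcp1, the subunit that gave the complex its name, 0.09 to 0.31. The titles of the Cct3 clone at 0.268 and of the Tcp1 clone at 0.09 contradict the annotation. Of the 5 clones of Cct4 the means ran from -0.77 to 0.76, and the clone at -0.77 was the 1 TRiC clone with a mean below 0. The brightest clone of Cct4 gave 0.11, 1.45, -0.25 and -0.26, so that its mean of 0.26 ± 0.81 rests on repeat 2, without which it was -0.13. For subunits spotted in several wells, wells of 1 clone spanned up to 0.75 for Cct3 and 0.79 for Cct5 on 1 array. The median of this span over the arrays was 0.48 for Cct3 and 0.27 for Cct5. A span is not the same measure as the SD of those clones over the arrays, which was 0.34 and 0.25.

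Among the DnaJ partners, Dnaja1, which delivers substrates to Hsp70, gave 0.51, 0.72, 0.94 and 0.35 (0.63 ± 0.25, unadjusted p = 0.031, adjusted p = 0.456, limma), above 0 on every array. Of its 7 clones 5 had a mean above 0, and a dim clone had -0.74 ± 0.69. That dim clone had a median spot area of 41.5 pixels, against 122 for the brightest. The related Dnaja2 gave 0.51, 0.67, 0.97 and 0.22 (0.59 ± 0.32), and its 3 clones had means of 0.35 to 0.64. Dnajc7, which binds both Hsp70 and Hsp90, gave 0.72, 0.91, 1.12 and 0.55 (0.82 ± 0.25, unadjusted p = 0.0088, adjusted p = 0.453, limma). All 3 of these genes were above 0 on every array and highest on repeat 3, and of the 4 clones of Dnajc7 a dimmer one had -0.16 ± 0.57.

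Dnajc9, a histone chaperone, gave 0.48, 0.62, 1.66 and 0.11 (0.72 ± 0.67), with its control signal above background on 2 of the 4 arrays. Dnajc13, which acts on endosomes, had a mean of 0.36 ± 0.31. Dnajb1, the classical heat-inducible partner of Hsp70, gave 0.09, -0.51, -0.22 and -0.03 (-0.17 ± 0.26), within its spread of 0. Dnajb4 had -0.39 ± 0.29 and a second clone at 0.32, and the 4 clones of Dnajb6 had means from -1.41 to 0.54. The Dnajb6 clone at -1.41 had a median spot area of 50 pixels, against 113.5 for the brightest.

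Dnajc5, the cysteine string protein of synaptic vesicles and secretory granules, had clones on both sides of 0. Its brightest clone gave -0.14, 0.12, 0.61 and 0.45 (0.26 ± 0.33), whereas a dimmer one gave -0.95, -0.67, -0.32 and -0.61 (-0.63 ± 0.26) and another -1.89, -1.34, -1.45 and 0.04 (-1.16 ± 0.84, unadjusted p = 0.0092, adjusted p = 0.453, limma). The last of these was the 1 member clone that passed the adjusted threshold with the authors' deposited ratios, centred, at -6.79 and an adjusted p of 0.00013 by limma, where 543 of all clones passed. Its spots were small, with a median area of 37 pixels, against 118 for the brightest clone of Dnajc5. The 4 clones of this gene thus gave 2 means above and 2 below 0.

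Of the 20 FK506-binding protein clones, which are prolyl isomerases, 11 (55%) had a mean above 0 (median 0.16), near the 48.6% of all clones. With median centring 14 did, beside 48.0% of all clones. Fkbp4 (FKBP52), an Hsp90 partner at steroid receptors, gave 0.16, 0.34, 0.64 and -0.15 (0.25 ± 0.33) and had a mean above 0 for 4 of 5 clones. Fkbp5 (FKBP51), its counterpart at the same receptors, gave -0.01, -0.71, -0.19 and -0.43 (-0.33 ± 0.31), below 0 on every array. Fkbp1a (FKBP12) was at -0.10 ± 0.35, Fkbp3 at 0.14 ± 1.06 and Fkbp8 at -0.04 ± 0.65, each within its spread of 0. Among small heat shock proteins, which hold unfolded proteins without ATP, 1 of 6 clones had a mean above 0 (median -0.20), beside 48.6% of all clones. With median centring 2 of 6 did, beside 48.0%. Hspb1 (Hsp27) gave -0.32, 0.03, -0.32 and -0.04 (-0.16 ± 0.18). With median centring Hspb1 had a mean of 0.53.

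**Figure D3:**
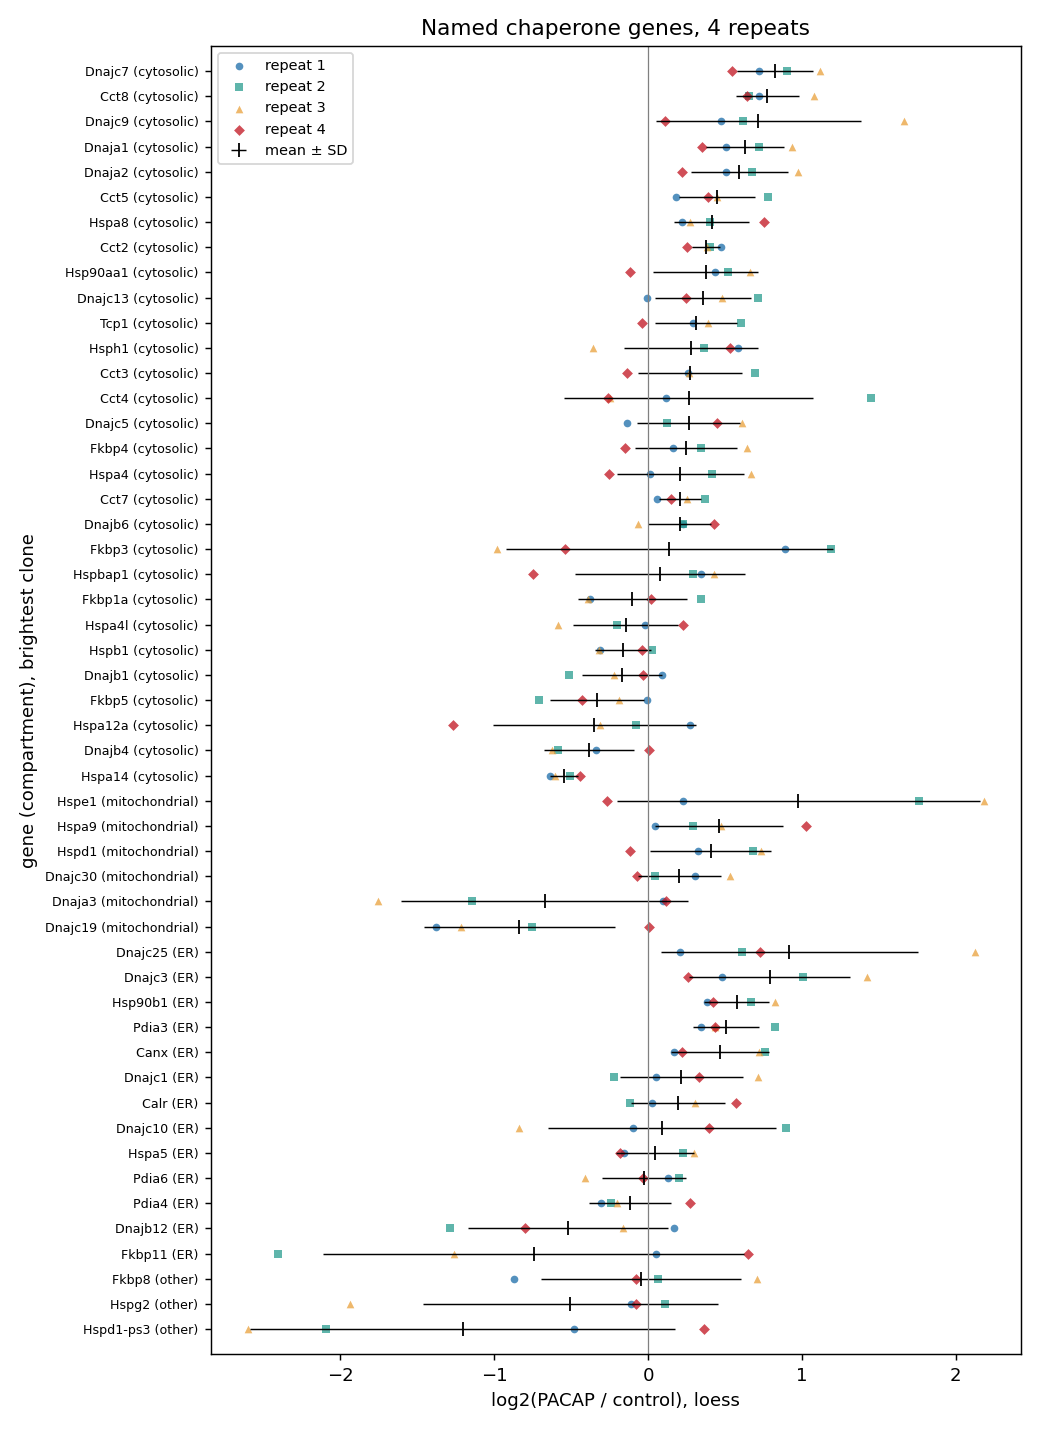
Log2(PACAP / control) of the 51 member genes chosen by the naming rule, brightest clone, with 1 symbol per repeat and the mean ± SD as a black tick and line; genes are ordered by compartment and mean. Dnajc7 (0.82), Cct8 (0.78) and Hspa14 (-0.55) have all 4 arrays on 1 side of 0 and a narrow spread, whereas Fkbp11 and Hspd1-ps3 span over 2 log2 units.

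In mitochondria, the Hsp70 Hspa9 (mortalin), which pulls proteins through the inner membrane, gave 0.05, 0.29, 0.48 and 1.03 (0.46 ± 0.42), and its 3 clones had means of 0.46 to 0.66. Hspd1 (Hsp60) gave 0.33, 0.68, 0.74 and -0.12 (0.41 ± 0.39), and its lid Hspe1 (Hsp10) gave 0.23, 1.76, 2.18 and -0.27 (0.98 ± 1.18, unadjusted p = 0.050, adjusted p = 0.480, limma). All 3 clones of Hsp60 and Hsp10 were above 0 on repeats 1 to 3 and below 0 on repeat 4, where Hspa9 was at its highest. Without repeat 4 the means were 0.58 for Hspd1, 1.39 for Hspe1 and 0.27 for Hspa9. The control signal of the Hspe1 clone was above background on 2 of 4 arrays.

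Of the 6 mitochondrial DnaJ genes, 3 had a mean below 0, among them the 2 that the naming rule took for smallest p. Over all named genes the mean was above 0 for 52.9%, so this share was near the general one. Dnajc19, a part of the import motor, gave -1.38, -0.75, -1.22 and 0.0036 (-0.84 ± 0.62, unadjusted p = 0.022, adjusted p = 0.453, limma), from a dim clone. Dnaja3 (Tid1) gave 0.10, -1.14, -1.75 and 0.12 (-0.67 ± 0.93), below 0 on repeats 2 and 3 alone. The clone of the pseudogene Hspd1-ps3, which was put in no compartment, gave -0.48, -2.10, -2.60 and 0.36 (-1.20 ± 1.38), the opposite sign to both Hspd1 clones on every array. The median spot area of this clone was 41 pixels, against 123 for the brightest Hspd1 clone.

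In the ER, calnexin (Canx), a membrane-bound lectin chaperone, had 6 clones, all with a mean above 0 after loess (0.32 to 1.15), and 5 of them were above 0 on all 4 arrays. Its brightest clone gave 0.17, 0.76, 0.72 and 0.22 (0.47 ± 0.32). The clone of smallest p gave 1.15, 1.49, 1.42 and 0.55 (1.15 ± 0.43, unadjusted p = 0.0022, adjusted p = 0.453, limma), with its control signal above background on 2 of 4 arrays. Its soluble counterpart calreticulin (Calr) gave 0.03, -0.12, 0.30 and 0.57 (0.19 ± 0.30), within its spread of 0, and its other clone was at 0.15 ± 0.30.

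Pdia3 (ERp57), the disulphide isomerase that works with both lectins, gave 0.34, 0.82, 0.44 and 0.43 (0.51 ± 0.21, unadjusted p = 0.065, adjusted p = 0.487, limma). Its 3 clones had means of 0.51, 0.58 and 0.62, and all were above 0 on all 4 arrays. Cct2 and Cct5, with 2 clones each, were the 2 other member genes with several clones for which this held. For Cct2 it rests in part on the clone whose title names beta-secretase. Pdia4 (ERp72) was at -0.12 ± 0.27 and Pdia6 at -0.03 ± 0.27, both within their spread of 0. The brightest clone of Pdia6 has a title that names zinc finger homeobox 1b, and its other clone was at -0.01 ± 0.26.

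Hspa5 (BiP), the ER Hsp70 that is the standard readout of the unfolded protein response, gave -0.16, 0.22, 0.30 and -0.18 (0.05 ± 0.25), with arrays on both sides of 0. Its 4 clones had means of 0.05 to 0.41, and 2 of them were above 0 on all 4 arrays. The brightest clone was at -0.02 with the arrays scaled to 1 spread. Dnajc3 (p58IPK), a BiP partner that is also an inhibitor of the kinase PERK, gave 0.48, 1.01, 1.42 and 0.26 (0.79 ± 0.52, unadjusted p = 0.021, adjusted p = 0.453, limma), above 0 on every array, but its 4 clones ran from -0.51 to 0.79. Dnajc25 gave 0.21, 0.61, 2.13 and 0.73 (0.92 ± 0.84) from a dim clone whose control signal exceeded background on only 1 of 4 arrays. Dnajc10 (ERdj5), which reduces disulphides, was at 0.09 ± 0.74, Dnajc1 at 0.22 ± 0.40, Dnajb12 at -0.52 ± 0.65 and Fkbp11 at -0.74 ± 1.37, so that none of these 4 stood beyond its spread.

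**Figure D4:**
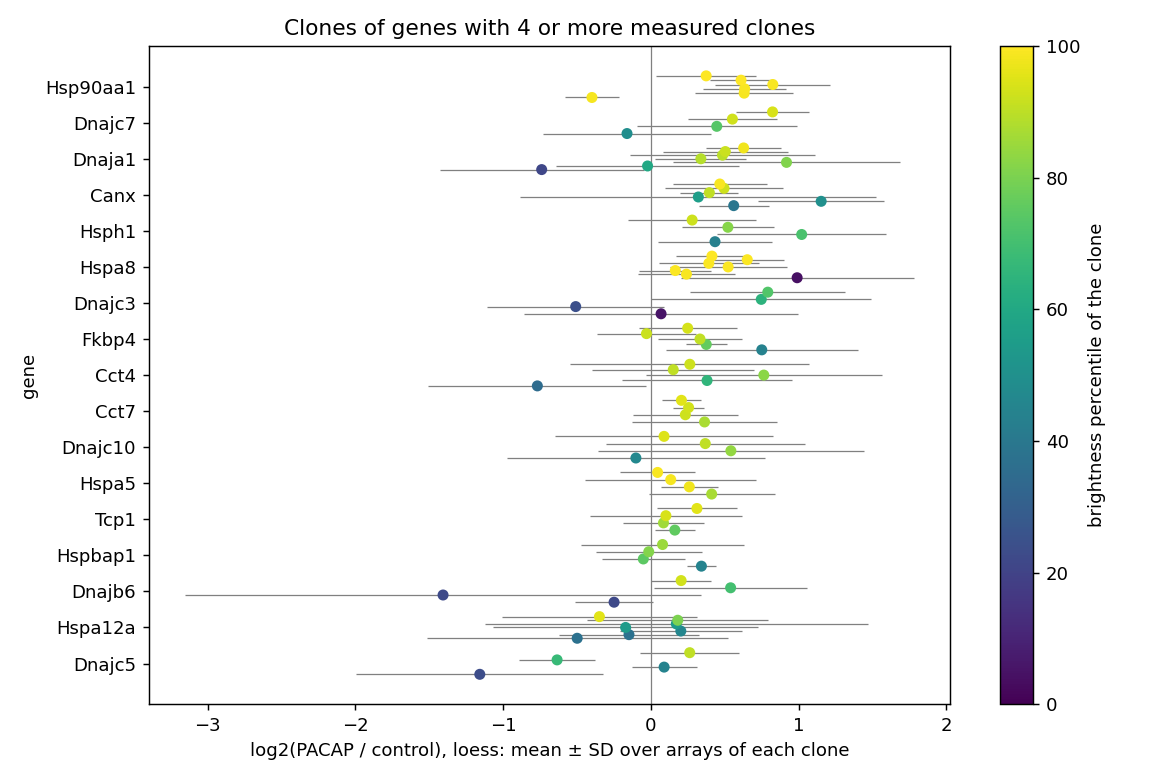
Mean ± SD over the arrays of log2(PACAP / control) for every measured clone of the 17 member genes with 4 or more measured clones, coloured by the brightness percentile of the clone. All clones of Hspa8, Canx, Hsph1, Cct7, Hspa5 and Tcp1 have a mean above 0, Hsp90aa1 has 1 bright clone at -0.40, and the lowest clones of Dnaja1, Cct4, Dnajc5 and Dnajb6 are dim.

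Clones of 1 gene differed from each other with a median SD of 0.25 over the 56 member genes with several clones, against 0.30 over all such named genes, and a clone differed between arrays with a median SD of 0.43, against 0.55 over all clones. Across member clones, the ratios of repeats 2 and 3 correlated with a Pearson r of 0.46, those of repeats 1 and 2 with 0.19 and those of repeats 1 and 3 with 0.25. Repeat 4 correlated with repeats 1, 2 and 3 with 0.05, 0.0046 and 0.09, so that it stood apart. It did so over all clones tested too, with -0.016, -0.13 and -0.0078. Over all clones repeats 2 and 3 gave 0.38, repeats 1 and 2 gave 0.23 and repeats 1 and 3 gave 0.30. The member values are over 199 to 202 clones, which share their arrays, dyes and trends with brightness, and are given as a description. Without repeat 4 the compartment medians were 0.32 for cytosolic, 0.18 for mitochondrial and 0.15 for ER genes. Of the 27 member clones that were higher at an unadjusted p under 0.05, 15 lay above the 80th percentile of brightness, and of the 10 that were lower 8 lay below the 50th. Beside this, 102 of all 202 member clones (50.5%) lay in the brightest quintile, so the higher clones were about as bright as members in general. Brightness quintiles 1, 2 and 3 held 14, 18 and 31 member clones.

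Genes of protein folding outside the naming pattern lay close to the named genes as a whole. Of 78 listed genes, 67 were measured, 38 (56.7%) had a mean above 0 and the median was 0.04, beside 52.9% and 0.03 over all named genes. At an unadjusted p under 0.05, 4 (5.97%) were higher and 1 (1.49%) was lower, against 3.93 and 6.46% of all clones, and 0 passed the adjusted threshold by limma. The first shares count genes by their brightest clone and the second count every clone, so the units differ. The median was 0.02 over 34 ER helpers and genes of the unfolded protein response, 0.04 over 25 cytosolic helpers and 0.09 over 8 mitochondrial helpers.

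The 4 of smallest p were 3 ER genes and 1 mitochondrial gene. Erp44, which retains unassembled proteins in the ER, gave 1.05, 1.90, 1.76 and 0.59 (1.33 ± 0.62, unadjusted p = 0.0019, adjusted p = 0.453, limma), and Creld2, a disulphide isomerase-like ER protein, gave 0.74, 0.19, 1.74 and 0.46 (0.78 ± 0.68). Clpx, the unfoldase of a mitochondrial protease, gave 0.37, 0.98, 1.31 and 0.73 (0.85 ± 0.40). These 3 were above 0 on every array. Eif2ak3 (PERK), a sensor of unfolded proteins in the ER, gave -0.35, -3.50 and -2.43 on repeats 1 to 3 with no value on repeat 4 (-2.09 ± 1.61, n = 3).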

How the data were processed

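Each array gave intensity, local background and its spread per spot and channel on a linear scale, per the file headers, which name no image analysis program. They also give a deposited quality score from 0 to 1 for each spot, which was not used as a filter. Background had already been taken off the deposited mean intensity: total intensity over mean plus background gave 114.7 to 122.1 pixels per spot. The authors' deposited series table holds log2 ratios, which were recomputed as the log2 ratio after a second background subtraction floored at 1, minus log2 of a calibration factor (1.69, 1.97, 1.53 and 0.432 for repeats 1 to 4). Their scale and direction (PACAP over control) were found from the values; they were not centred, with medians of 4.67, 5.53, 4.25 and -0.38. The table was joined to spots by plate position; 35695 of 35743 entries lay within 0.1 of the recomputed value and 2304 of 2304 shared clone identifiers were equal. Symbols come from the platform annotation, which gave 1 symbol for 22477 library spots, several for 1112 and none for 12485.

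Intensities were floored at 1 and normalised by global loess per array (limma 3.58.1, R 4.3.3), in place of normexp with an offset of 50, which the design kept for uncorrected means. A clone was tested where either channel exceeded 2 background SD on 3 or more of the 4 arrays; wells of 1 clone were averaged. The mean log2 ratio was tested against 0 (lmFit, eBayes, intercept only, 2-sided), adjusted by Benjamini-Hochberg over all clones, and the procedure was tested on simulated data. Tables and plots used Python 3.11.15 with pandas 2.3.3, numpy 2.4.6 and matplotlib 3.10.9. Precision is limited by the 4 arrays.

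The naming rule took, for each direction, the 8 genes of smallest p, genes with 3 or more measured clones, a fixed list, of which Hsp90ab1 was not measured, and 4 folding genes outside the pattern. Members, compartments and lists were chosen with earlier results of these data known; families and title conflicts (9 wells) were written after the values were seen.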

Additional observations from a re-analysis of the deposited data

Results flagged for a closer look

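In 2 of the 54 values examined, 1 array lay far from the other 3; chance gives about 1 such value in 20. Hspbap1, which encodes an Hsp27-associated protein, stood at a log2 ratio of -0.75 on repeat 4 while the other 3 arrays gave 0.29 to 0.43, and the means of its 4 clones ran from -0.05 to 0.34. Hspg2, the extracellular matrix proteoglycan perlecan, which is no chaperone and entered by its symbol, stood at -1.94 on repeat 3 while the other arrays gave -0.11 to 0.11. Its other 2 clones had 0.99 and 0.51 on repeat 3.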

How the results depend on the processing

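The results were recomputed under 15 alternatives, of which leaving out clones with a contradicting title was chosen after seeing the data. The median was above 0 under 15 of 16 settings for cytosolic and for ER genes and under 16 of 16 for mitochondrial genes. The 16 take in the main setting. Trend and robust moderation changes only p-values, so its medians had to equal those of the main setting. Without the filter on dim clones the medians were also those of the main setting. No member clone passed the adjusted threshold except 1 with the deposited ratios, centred. With those ratios 5 member clones (2.48%) were higher and 16 (7.92%) lower at an unadjusted p under 0.05, against 1.20 and 11.6% of all clones, and the medians were -0.41 (cytosolic), 0.98 (mitochondrial) and -0.89 (ER). Median centring gave 70 higher clones (34.7%, against 7.68% of all) and medians of 0.60 (cytosolic) and 0.65 (ER). Trend and robust moderation gave 11 higher (5.45%, against 2.59% of all) and 0 lower clones (0.0085% of all). Requiring both channels above background gave an ER median of 0.089. Leaving out each repeat in turn gave 9 to 26 higher (4.46 to 12.9%, against 2.00 to 4.87% of all) and 3 to 12 lower clones (1.49 to 5.94%, against 3.23 to 9.80% of all).

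The brightest clone of each of the 51 named genes missed the adjusted threshold under every setting that gave it a test; the 1 clone that passed is a dimmer clone of Dnajc5. The sign turned at least once for 35 of them, for 18 outside the deposited ratios, and never for 16. With the deposited ratios, centred, the turned values were -2.37 for Calr, -2.18 for Canx, -1.91 for Cct2, -1.29 for Cct3, -1.04 for Cct4, -0.26 for Cct7, -1.51 for Dnaja1, 2.04 for Dnaja3, 1.02 for Dnajb1, -2.15 for Dnajb6, -0.11 for Dnajc1, -2.52 for Dnajc10, 0.78 for Fkbp11 and 0.93 for Fkbp1a. They were also -0.88 for Fkbp3, -2.18 for Hsp90aa1, -2.02 for Hsp90b1, 0.94 for Hspa12a, -2.45 for Hspa4, -2.64 for Hspa5, -2.05 for Hspa8, -1.85 for Hspa9, -1.04 for Hspbap1, -0.30 for Hspd1, -0.99 for Hsph1, -1.78 for Pdia3 and -2.27 for Tcp1. With median centring they were 0.39 for Dnajb1, 0.38 for Fkbp1a, 0.45 for Fkbp8, 0.31 for Hspa12a, 0.57 for Hspa14, 0.35 for Hspa4l, 0.53 for Hspb1, 0.72 for Pdia4 and 0.56 for Pdia6. The mean over a gene's clones gave -0.23 for Dnajb6, -0.045 for Dnajc30, -0.36 for Dnajc5, 0.13 for Fkbp1a, -0.13 for Hsp90b1, 0.093 for Hspa4l and 0.024 for Pdia4. The value for Hsp90b1 takes in the clone whose spot was very dim on repeat 3. Loess within print blocks gave 0.023 for Dnajb1, 0.11 for Fkbp1a and 0.058 for Pdia6, and scaling between arrays -0.023 for Hspa5 and -0.030 for Hspbap1. Without repeat 1 the turned values were -0.11 for Fkbp3, 0.23 for Fkbp8 and -0.0096 for Hspbap1, and without repeat 2 they were -0.13 for Cct4, -0.18 for Dnajc10, -0.21 for Fkbp3 and -0.014 for Hspa5. Without repeat 3 they were 0.00084 for Hspa4l, -0.039 for Hspa5, -0.038 for Hspbap1 and 0.099 for Pdia6, and without repeat 4 -0.013 for Dnajc10. Over the 4 repeats left out in turn these genes ranged from -0.13 to 0.44 (Cct4), -0.18 to 0.40 (Dnajc10), -0.21 to 0.51 (Fkbp3), -0.295 to 0.23 (Fkbp8), -0.27 to 0.00084 (Hspa4l), -0.039 to 0.12 (Hspa5), -0.038 to 0.35 (Hspbap1) and -0.11 to 0.099 (Pdia6). The cause of these turns was not tested, apart from the share of control signals at the floor in the deposited ratios.

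Each ratio sets PACAP against the control of the same repeat, so the test of the mean ratio against 0 is already paired. No further pairing was possible because the arrays form 1 group. There were 4 arrays, and control signals lay near background on repeats 2 and 3. In simulated data, which did not hold such dim control signals, the test called 0 of 67 clones given a 2-fold change.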

Other observations

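A further 6 measured clones carry a member symbol together with another symbol and were left out of the counts. The clone of Gm12346 and Hsp90aa1 had 0.20, 0.19, 0.72 and 0.11 on repeats 1 to 4 (0.31 ± 0.28), above 0 on every array like 4 of the 6 Hsp90aa1 clones. The 2 clones that pair Dnaja1 with another symbol had opposite means, 0.60 ± 0.46 and -0.42 ± 0.60. The 2 clones of Fkbp15 and BB131447 had -0.40 ± 0.52 and -0.23 ± 0.47, and the clone of Lsm2 and Hspa1l had -0.44 ± 0.57 (n = 3). The lowest unadjusted limma p among these 6 was 0.055, with an adjusted p of 0.480.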
